A study of Mus musculus with 8 samples.

Results

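The Slc25 genes encode the mitochondrial carriers, and 47 of the 55679 genes in the deposited table carry a name of the form Slc25a followed by a number. They were taken by this name alone, so the relatives that carry other names (Ucp1, Ucp2, Ucp3, Mtch1 and Mtch2) were kept apart. Gene expression had been measured by RNA-seq in left ventricles of male wild-type C57BL/6J mice, with 4 libraries from mice that had received saline (control group) and 4 from mice given a pressor dose of angiotensin II (ANG II group, 1500 ng/kg/min), a peptide hormone that raises blood pressure. Both infusions ran for 7 days from an osmotic pump under the skin, and no other allele or agent was named for either group. Hearts were flushed with saline before the ventricle was removed, and no ages were used here. The values are FPKM (fragments scaled by transcript length and by library size), which can be compared between genes.

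Mitochondrial carriers span the inner mitochondrial membrane, which is otherwise closed to most metabolites, and usually swap a molecule on the matrix side for another on the outer side. In heart muscle the traffic is dominated by the export of ATP in exchange for ADP and by the import of phosphate, which together serve ATP synthase. Other carriers run the malate-aspartate shuttle that brings reducing equivalents into the matrix, admit acylcarnitines for fatty acid oxidation, and move amino acids, cofactors and iron.

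The libraries held 14455648 to 16564836 fragments, as read from the steps of the FPKM values. Ventricular cardiomyocyte markers (Myh6, Myl2, Tnnt2, Actc1, Ryr2, Tnni3) summed to 41042 to 41986 FPKM in the controls and 30056 to 32983 FPKM under ANG II, whereas 3 atrial markers summed to 1.15 to 48.8 FPKM and 52.5 to 230 FPKM. Summed levels of the other markers were 325 to 456 against 1667 to 1977 FPKM for 5 fibroblast genes, 102 to 127 against 244 to 327 FPKM for 5 macrophage genes, and 90.4 to 452 against 540 to 1906 FPKM for 4 erythroid genes (control against ANG II in each case). All 5 fibroblast, all 5 macrophage and all 3 cycling genes (Mki67, Top2a, Ccna2) were called higher, as were 3 of 4 erythroid genes, while 3 of 6 ventricular cardiomyocyte genes were lower with an adjusted p-value under 0.05. The rule for a call is given below, and by it 14.0% of all tested genes were higher. By the adjusted p-value alone, 4.91% of them were lower. Mitochondrially encoded genes took 26.3 to 27.0% of fragments in control and 19.2 to 21.8% in ANG II.

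The summed level of the carrier family was lower with ANG II, a sum to which a few abundant genes gave most. The summed level of the 47 genes was 4995, 4973, 5118 and 4883 FPKM in the control libraries and 4302, 4504, 4311 and 4350 FPKM in the ANG II libraries, so that every ANG II library lay below every control library. Slc25a4 alone made up 49.6 ± 0.552% of this sum in the controls and 48.6 ± 0.421% under ANG II (SD, n = 4 each), and the 6 carriers most abundant over all 8 libraries 87.4 ± 0.130% and 85.6 ± 0.520%. Over the 43 carriers tested below, the median log2 fold change was 0.0046 and 21 were negative, against 27 without mitochondrially encoded genes, 31 under median-of-ratios scaling and 33 after quantile normalization. Without Slc25a4 the sum was still lower, at 2514 ± 71.2 FPKM in the controls and 2246 ± 65.9 FPKM under ANG II (SD, n = 4 each). In whole ventricle, fewer cells of a type and less RNA per cell cannot be told apart, and the part that the markers above had in these differences was not tested.

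The main comparison asked which carriers differ between the groups. A total of 43 of the 47 genes reached a mean of 0.1 FPKM and were tested by limma on log2(FPKM + 1), together with all other genes, and a gene was called when it passed 0.05 after Benjamini-Hochberg adjustment with a log2 fold change of more than 0.5 in either direction. By this rule 4 carriers (Slc25a24, Slc25a1, Slc25a45 and Slc25a30) were called higher in ANG II and 0 were called lower, so that 4 of 43 were called where 15.4% of all 19364 tested genes were (14.0% higher and 1.41% lower). By the adjusted p-value alone, 7 carriers were higher and 12 lower in limma, 19 in all, where 33.3% of all genes passed (28.4% higher and 4.91% lower). Groups did not overlap at 7 carriers with higher and 11 with lower values in ANG II, against 28.7% and 5.06% of all tested genes. By the adjusted p-value alone and by non-overlap, the carriers thus held a smaller share of higher and a larger share of lower genes than the table as a whole. By the call rule, 4 higher and 0 lower of 43 are few, and no difference from 14.0% and 1.41% was read from them. The number of lower calls also depended on the scaling, as given below. Most of the lower carriers changed little: the 12 log2 fold changes ran from -0.48 for Slc25a26 to -0.18 for Slc25a20, short of the fold change threshold.

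The median log2 fold change was 0.0046 over the 43 carriers and 0.15 over all tested genes, a difference of -0.14. When the libraries were rescaled by the median of ratios, the median over all genes became 0.0042 and that of the carriers -0.18. With that scaling 11 carriers were called (12.8% of all genes), 3 higher and 8 lower (8.63% and 4.15% of all genes), with Slc25a11, Slc25a12, Slc25a13, Slc25a26, Slc25a33, Slc25a38 and Slc25a42 among the lower ones. Quantile normalization gave 9 called carriers (12.4% of all genes), 2 higher and 7 lower (7.30% and 5.09%), and leaving out mitochondrially encoded genes gave 8 (13.3%), 4 higher and 4 lower (10.9% and 2.33%). A pseudocount of 0.1 and voom on recovered fragments each gave 6, 4 higher and 2 lower, where 19.7% of all genes were called with the former (17.7% higher, 2.01% lower) and 20.9% with the latter (18.9% higher, 2.03% lower). None of the 19 carriers with an adjusted p-value under 0.05 changed direction under any of the alternatives tried. Fold changes below are for the values as deposited.

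**Figure D1:**
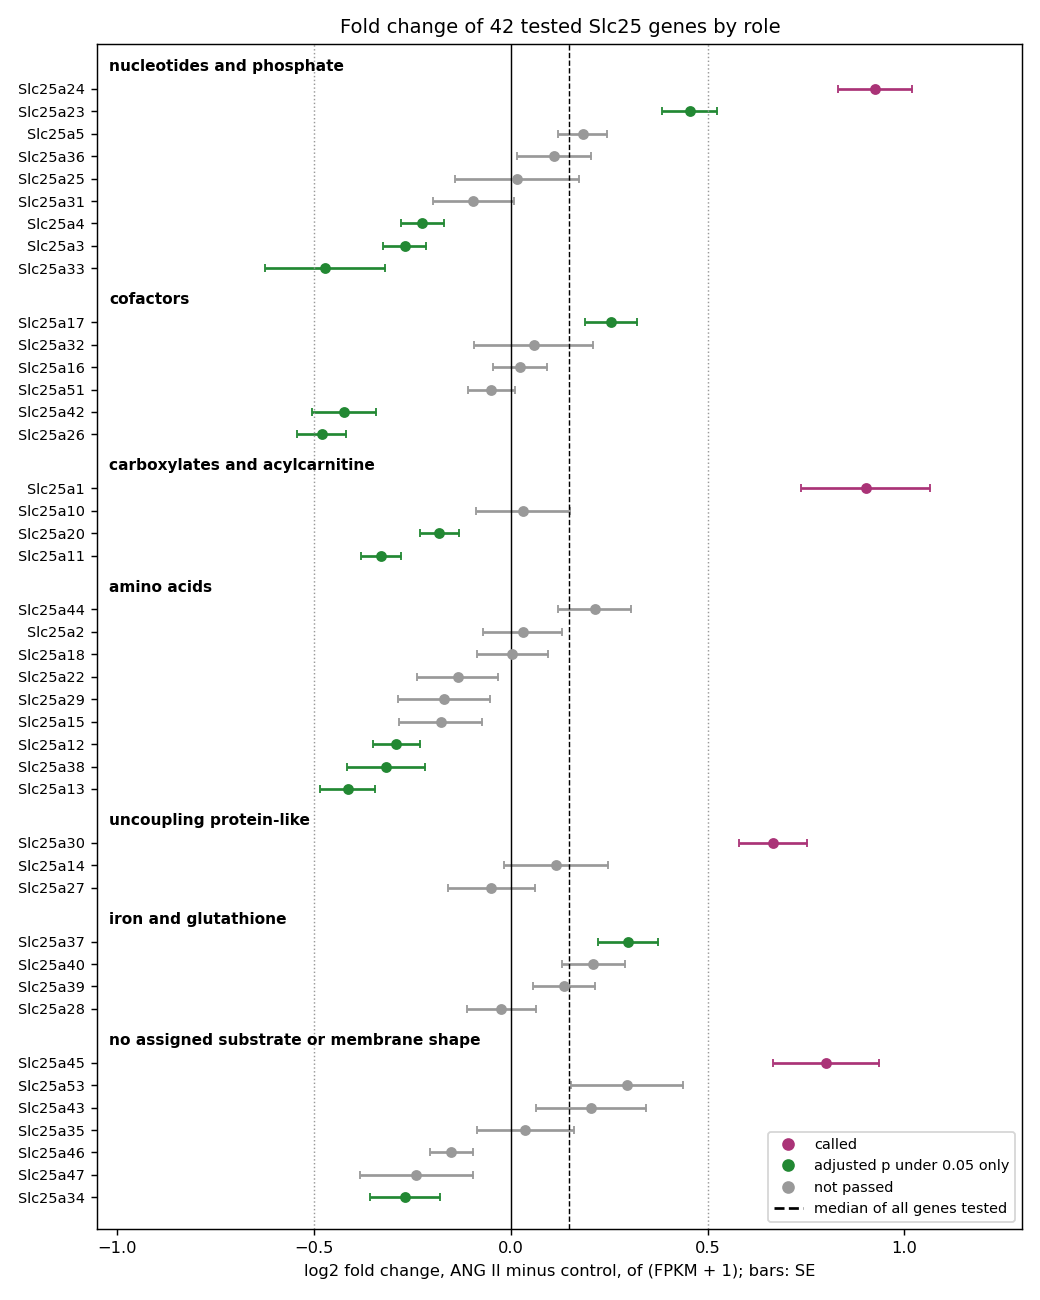
Log2 fold change (ANG II minus control, of FPKM + 1) on the horizontal axis for 42 of the 43 tested Slc25 genes, with 1 gene per line, sorted within role groups, and bars for the SE of the limma fit. The dashed line is the median of all tested genes (0.15), the dotted lines are the fold change threshold of 0.5 in each direction, and the 4 called genes lie to the right of both.

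The 4 carriers called higher were of low or middling abundance. Slc25a24 (ENSMUSG00000040322, chromosome 3, 109123149 to 109168457, GRCm38), a calcium-regulated carrier that exchanges ATP-Mg for phosphate, was at 5.74, 4.85, 5.57 and 5.81 FPKM in the controls and 12.4, 9.70, 12.2 and 11.1 FPKM under ANG II. Its 4 ANG II values were all well above the controls, and the log2 fold change was 0.92 (SE 0.0944, limma adjusted p = 9.65e-05). Slc25a1 (ENSMUSG00000003528, chromosome 16, 17925223 to 17928219), which carries citrate out of the matrix, was at 4.26, 7.86, 4.50 and 5.49 FPKM in the controls and 12.96, 9.50, 11.3 and 10.2 FPKM under ANG II. Control 2 was the highest of its group and ANG II 2 the lowest of its own, but the groups did not overlap (log2 fold change 0.90, SE 0.164, limma adjusted p = 0.00232). These values rested on as few as 52 fragments in a library.

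Slc25a45 (ENSMUSG00000024818, chromosome 19, 5877808 to 5885878) is grouped here with the carriers that have no assigned substrate. It was at 4.39, 3.63, 3.36 and 3.93 FPKM in the controls and 7.17, 5.80, 7.44 and 9.56 FPKM under ANG II, with a wider spread in the ANG II group than in the controls and no overlap (log2 fold change 0.80, SE 0.135, limma adjusted p = 0.00149). Slc25a30 (ENSMUSG00000022003, chromosome 14, 75760117 to 75787037), a relative of the uncoupling proteins also called kidney mitochondrial carrier, was at 11.9, 10.5, 9.75 and 10.7 FPKM in the controls and 19.5, 17.7, 15.4 and 18.0 FPKM under ANG II. Its groups were clearly apart (log2 fold change 0.67, SE 0.0865, limma adjusted p = 0.000354). Slc25a30 fell short of the fold change threshold under median-of-ratios scaling (0.45), and Slc25a30 and Slc25a45 did so under quantile normalization (0.42 and 0.49). Once the median over all genes was subtracted, these 4 log2 fold changes were 0.52 to 0.78.

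**Figure D2:**
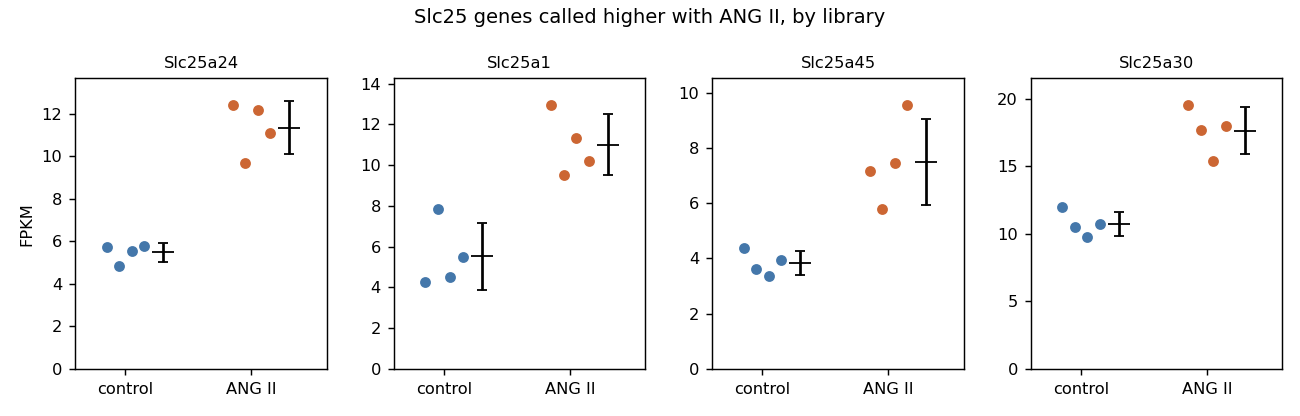
FPKM of the 4 Slc25 genes called higher with ANG II, 1 panel per gene, with a point for each library (4 control, 4 ANG II) and the mean ± SD beside them. In each panel all 4 ANG II points lie above all 4 control points, and the gap for Slc25a1 runs from 7.86 to 9.50 FPKM.

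The promoters of these 4 genes are shown because they are the carriers called higher with ANG II. Each runs from 250 bases before to 50 bases after the RefSeq start on GRCm38.p6, 5′ to 3′ on the strand of the gene, and capitals mark the GC box GGGCGG on either strand. The windows are chr16:17928170-17928469 (minus strand), chr3:109122899-109123198 (plus strand), chr14:75786988-75787287 (minus strand) and chr19:5877572-5877871 (plus strand).
Slc25a1 promoter: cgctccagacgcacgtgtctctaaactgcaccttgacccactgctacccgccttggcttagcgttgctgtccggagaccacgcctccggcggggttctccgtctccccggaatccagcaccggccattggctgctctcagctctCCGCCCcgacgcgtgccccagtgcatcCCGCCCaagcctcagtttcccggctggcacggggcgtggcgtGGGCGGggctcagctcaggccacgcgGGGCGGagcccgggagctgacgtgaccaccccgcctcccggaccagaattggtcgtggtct
Slc25a24 promoter: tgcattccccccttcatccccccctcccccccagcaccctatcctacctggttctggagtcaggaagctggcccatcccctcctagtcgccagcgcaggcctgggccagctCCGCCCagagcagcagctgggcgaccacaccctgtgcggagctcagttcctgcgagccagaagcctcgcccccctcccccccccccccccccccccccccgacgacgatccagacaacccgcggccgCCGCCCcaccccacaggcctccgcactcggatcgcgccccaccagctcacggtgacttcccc
Slc25a30 promoter: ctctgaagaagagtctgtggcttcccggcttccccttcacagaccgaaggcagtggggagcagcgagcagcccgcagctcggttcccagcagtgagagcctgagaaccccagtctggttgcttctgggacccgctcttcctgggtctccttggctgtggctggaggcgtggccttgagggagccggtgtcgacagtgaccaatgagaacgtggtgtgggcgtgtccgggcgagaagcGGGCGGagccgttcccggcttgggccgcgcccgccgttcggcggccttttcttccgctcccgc
Slc25a45 promoter: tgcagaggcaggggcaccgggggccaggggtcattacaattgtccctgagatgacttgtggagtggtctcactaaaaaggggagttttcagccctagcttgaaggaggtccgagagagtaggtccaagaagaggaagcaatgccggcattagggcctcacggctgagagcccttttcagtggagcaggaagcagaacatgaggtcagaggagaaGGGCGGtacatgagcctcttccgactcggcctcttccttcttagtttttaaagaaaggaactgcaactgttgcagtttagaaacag
The GC box occurred 4 times in the Slc25a1 window, 2 times in that of Slc25a24 and 1 time each in those of Slc25a30 and Slc25a45. In all, 36 of the 47 carriers had a window in the RefSeq table, with 46 windows between them, and 82.6% of these held a GC box, against 57.5% of the windows of tested genes and 35.7% of all 32851 windows. The TATA box TATAAA was found in 4.35% of carrier windows against 7.997% of the windows of tested genes and 13.6% of all windows. The letters TCAAGGTCA, bound by oestrogen-related receptors, were in 0 carrier windows, in 0.279% of those of tested genes and in 0.423% of all windows. These letters are not in those windows on either strand, and nothing further was drawn from it.

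Nucleotide and phosphate carriers held the bulk of the family, with a summed level of 3735 ± 67.2 FPKM in the controls and 3275 ± 76.0 FPKM under ANG II (SD, n = 4 each). Of 9 tested members, 2 were higher and 3 lower with an adjusted p-value under 0.05 in limma, where 28.4% of all tested genes were higher and 4.91% lower, shares that also stand behind the counts of the other roles. Slc25a4 (ENSMUSG00000031633, chromosome 8, 46206797 to 46211284), the ADP/ATP translocase of heart and skeletal muscle, was the most abundant carrier in both groups. It was at 2499, 2487, 2500 and 2427 FPKM in the controls and 2094, 2160, 2102 and 2127 FPKM under ANG II. The groups were tight and did not overlap, and the log2 fold change was -0.22 (SE 0.0544, limma adjusted p = 0.0103; 0.0560 without the filter on low values). Under median-of-ratios scaling it was -0.45 and after quantile normalization -0.35 (limma adjusted p = 0.000711 and 0.00111). Slc25a3 (ENSMUSG00000061904, chromosome 10, 91116574 to 91124059), the phosphate carrier, followed with 913, 903, 947 and 896 FPKM in the controls and 714, 810, 762 and 750 FPKM under ANG II. It was lower in every ANG II library (log2 fold change -0.27, SE 0.0539, limma adjusted p = 0.00388).

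Slc25a5 (ENSMUSG00000016319, chromosome X, 36795651 to 36798807), the ADP/ATP translocase of dividing and many other cells, had a higher, not a lower, mean with ANG II. It was at 258, 237, 274 and 251 FPKM in the controls and 300, 312, 269 and 278 FPKM under ANG II. ANG II 3 lay below control 3, so the groups overlapped, and the difference of 0.18 on the log2 scale (SE 0.0632) did not pass (limma adjusted p = 0.05003). Without control 3 or without ANG II 3 it passed (limma adjusted p = 0.0392 and 0.0285), as it did with a pseudocount of 0.1, a filter at 1 FPKM and voom (0.0489, 0.0373 and 0.0390), and under median-of-ratios scaling its sign turned (-0.05, limma adjusted p = 0.684). Its values are uncertain, since 9 other genes have transcripts that share 33.8% of its stretches of 50 bases. The cycling, fibroblast and macrophage markers were higher in ANG II by group, and any relation to the Slc25a5 values was not tested.

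Slc25a23 (ENSMUSG00000046329, chromosome 17, 57043711 to 57059863), a further ATP-Mg/phosphate carrier, was at 27.2, 28.8, 28.2 and 26.1 FPKM in the controls and 41.1, 40.8, 34.0 and 37.1 FPKM under ANG II. The groups did not overlap and the difference on the log2 scale, 0.46 with an SE of 0.0696 (limma adjusted p = 0.000879), was just short of the threshold; without ANG II 3 it was 0.51, and the gene was called, whereas it was 0.23 under median-of-ratios scaling and 0.26 after quantile normalization. Slc25a33, which carries pyrimidine nucleotides, was at 4.18, 6.46, 4.29 and 4.64 FPKM in the controls and 4.02, 2.43, 3.36 and 3.15 FPKM under ANG II. The ANG II values lay below the controls by a narrow margin (log2 fold change -0.47, SE 0.152, limma adjusted p = 0.0378), and a gene on the opposite strand covers 14.9% of its exons. Its adjusted p-value rose above 0.05, to between 0.0529 and 0.0976 in limma, without control 2, 3 or 4 or ANG II 2, 3 or 4, and to 0.0714 without the filter on low values, and without control 1 or ANG II 1 it was called lower. Slc25a36, of the same substrate class, was at 49.5, 37.5, 43.9 and 38.4 FPKM in the controls and 41.2, 44.2, 49.8 and 47.1 FPKM under ANG II, with overlap between the groups (limma adjusted p = 0.404). Slc25a31, the translocase known from sperm, was at no more than 0.369 FPKM in any library.

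**Figure D3:**
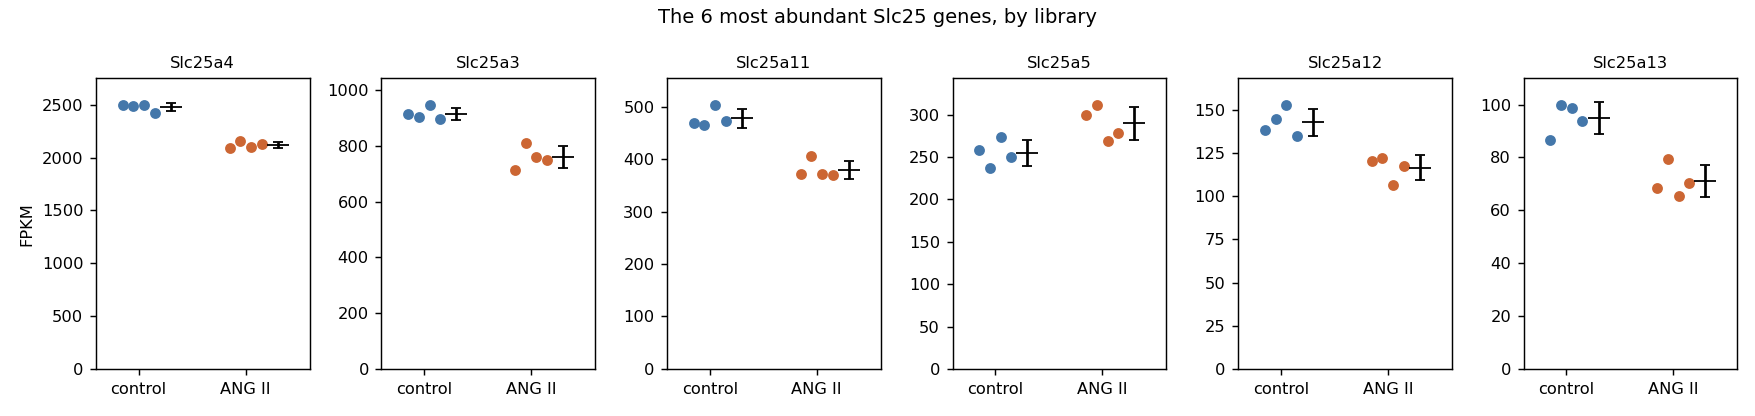
FPKM of the 6 Slc25 genes most abundant over all 8 libraries, 1 panel per gene on an axis from 0, with a point for each library (4 control, 4 ANG II) and the mean ± SD beside them. Control points lie above ANG II points without overlap in every panel but that of Slc25a5, where the ANG II mean (290 FPKM) is above the control mean (255 FPKM) and the points overlap.

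Carriers of carboxylates and acylcarnitine split. Slc25a11 (ENSMUSG00000014606, chromosome 11, 70644196 to 70647479) exchanges malate for oxoglutarate in the malate-aspartate shuttle. It was at 470, 466, 504 and 472 FPKM in the controls and 372, 406, 371 and 370 FPKM under ANG II, with ANG II 2 above the rest of its group and below every control (log2 fold change -0.33, SE 0.0507, limma adjusted p = 0.000897). Slc25a20, the carnitine/acylcarnitine translocase, went from 86.4 ± 1.95 to 76.2 ± 4.17 FPKM (SD, n = 4 each) without overlap (log2 fold change -0.18, limma adjusted p = 0.0186; 0.0530 without ANG II 1 and 0.0613 with no variance trend). Slc25a1, the citrate carrier described above, was higher, and the dicarboxylate carrier Slc25a10 was at 7.81 ± 1.01 and 8.02 ± 1.25 FPKM (SD, n = 4 each). The oxodicarboxylate carrier Slc25a21 was listed at 0 in 7 libraries and held 1 fragment in the other.

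Among 9 tested amino acid carriers, 0 were higher and 3 lower with an adjusted p-value under 0.05 in limma, and the median log2 fold change was -0.17. The aspartate/glutamate carriers, the other arm of the malate-aspartate shuttle, were both lower. Slc25a12 (chromosome 2, 71271063 to 71367749) was at 138, 145, 153 and 135 FPKM in the controls and 121, 122, 106 and 117 FPKM under ANG II (log2 fold change -0.29, SE 0.0596, limma adjusted p = 0.00447). Slc25a13 (chromosome 6, 6041218 to 6217173) was at 86.7, 99.9, 98.8 and 93.8 FPKM in the controls and 68.6, 79.5, 65.6 and 70.3 FPKM under ANG II (log2 fold change -0.41, SE 0.0694, limma adjusted p = 0.00148). Neither gene overlapped between the groups. Slc25a38, which brings glycine in for haem synthesis, went from 22.9 ± 2.39 to 18.2 ± 2.08 FPKM (SD, n = 4 each; log2 fold change -0.32, limma adjusted p = 0.0323), and missed 0.05 without control 1, control 3, ANG II 1 or ANG II 4 (0.0583 to 0.0887) and without the filter on low values (0.0558). The remaining 6, among them the glutamate carrier Slc25a22 (27.1 ± 2.78 and 24.6 ± 3.40 FPKM) and Slc25a44, linked to branched-chain amino acids (5.32 ± 0.588 and 6.31 ± 0.368 FPKM, SD, n = 4 each), had limma adjusted p-values from 0.105 to 0.976. Of these, Slc25a22 and the ornithine carrier Slc25a15 were lower under median-of-ratios scaling (-0.36 each, limma adjusted p = 0.0225 and 0.0358), and these and Slc25a29, a carrier of basic amino acids, were lower under quantile normalization (limma adjusted p = 0.0287, 0.0104 and 0.0183).

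Of 7 tested cofactor carriers, 1 was higher and 3 lower with an adjusted p-value under 0.05 in limma. Slc25a26, which imports S-adenosylmethionine, was at 17.3 ± 0.746 FPKM in the controls and 12.1 ± 0.634 FPKM under ANG II, without overlap (SD, n = 4 each; log2 fold change -0.48, SE 0.0627, limma adjusted p = 0.000368); without ANG II 3 it was -0.50 and called. Slc25a42, a coenzyme A carrier, was at 22.7 ± 1.67 and 16.7 ± 1.63 FPKM (SD, n = 4 each; log2 fold change -0.42, limma adjusted p = 0.00317). Slc25a17, the carrier of the peroxisomal membrane, was the higher of these, at 22.7 ± 1.58 and 27.2 ± 1.42 FPKM (SD, n = 4 each; log2 fold change 0.25, limma adjusted p = 0.0145). Under median-of-ratios scaling its log2 fold change was 0.03 (limma adjusted p = 0.763). Slc25a51, which imports NAD, was at 38.8 ± 0.735 and 37.6 ± 2.79 FPKM (SD, n = 4 each) and did not pass as deposited (-0.05, limma adjusted p = 0.566), but was lower under median-of-ratios scaling (-0.27, 0.00610) and quantile normalization (-0.23, 0.0160).

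Of the 2 iron carriers, 1 passed the adjusted p-value as deposited. Slc25a37 (mitoferrin 1), known from developing red cells, was at 9.20, 7.49, 8.24 and 8.12 FPKM in the controls and 10.01, 10.21, 10.26 and 10.999 FPKM under ANG II, without overlap (log2 fold change 0.30, SE 0.0762, limma adjusted p = 0.0136; 0.09 and 0.413 under median-of-ratios scaling). Slc25a28 (mitoferrin 2), used by most tissues, was at 15.4, 13.8, 12.6 and 13.8 FPKM in the controls and 13.9, 11.8, 13.8 and 15.2 FPKM under ANG II (limma adjusted p = 0.865). Slc25a28 was lower under median-of-ratios scaling (-0.24, limma adjusted p = 0.0457) and quantile normalization (-0.26, limma adjusted p = 0.0311). The erythroid gene Alas2, which starts haem synthesis in red cells, was at 6.16, 1.54, 1.70 and 2.36 FPKM in the controls and 16.1, 43.6, 28.0 and 9.85 FPKM under ANG II, and the part of erythroid RNA in the Slc25a37 values was not tested. The glutathione carriers Slc25a39 (76.3, 74.2, 87.1 and 68.9 against 87.1, 83.4, 90.6 and 75.5 FPKM) and Slc25a40 (6.23, 5.91, 5.76 and 6.78 against 7.38, 7.72, 7.31 and 6.74 FPKM) overlapped between control and ANG II. Neither passed, with limma adjusted p-values of 0.227 and 0.0700.

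Of the uncoupling protein-like carriers other than Slc25a30, Slc25a14 was at 1.34 ± 0.253 and 1.54 ± 0.357 FPKM and Slc25a27 at 4.09 ± 0.463 and 3.93 ± 0.493 FPKM (control and ANG II, SD, n = 4 each). Neither passed as deposited, but Slc25a27 was lower under quantile normalization (-0.37, limma adjusted p = 0.0189). In the group with no assigned substrate or with a role in membrane shape, Slc25a34, an orphan carrier, was at 48.3, 60.8, 55.6 and 57.2 FPKM in the controls and 45.7, 39.4, 48.4 and 50.2 FPKM under ANG II. Its groups overlapped, and its limma adjusted p-value of 0.0423 rose to between 0.0550 and 0.107 without control 2, 3 or 4 or ANG II 1, 2 or 3, to 0.0737 without the filter on low values and to 0.0716 with no variance trend. Slc25a46, an outer membrane protein of mitochondrial dynamics, was at 30.1 ± 1.66 and 27.0 ± 0.681 FPKM (SD, n = 4 each; limma adjusted p = 0.0594), and it passed as lower without control 4 (0.0263), without mitochondrially encoded genes (0.00448), and under median-of-ratios scaling and quantile normalization (0.00101 and 0.00131). Slc25a47, of the same group, did not pass as deposited (limma adjusted p = 0.235). It was lower under median-of-ratios scaling (-0.42, limma adjusted p = 0.0453) and called lower under quantile normalization (-0.56, limma adjusted p = 0.0114). The values of Slc25a35 are uncertain, because Rangrf on the opposite strand covers 31.3% of its exons. The 4 carriers that were not tested (Slc25a21, Slc25a41, Slc25a48 and Slc25a54) held no more than 1 fragment in any library, and a count of 0 allows up to 3 fragments.

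The most abundant carriers were mostly lower. Of the 9 carriers with a mean of at least 50 FPKM, a level chosen after the values were seen, 7 were lower with an adjusted p-value under 0.05 in limma and 0 higher, the exceptions being Slc25a5 and Slc25a39. Among the 7, Slc25a34 lay just above that level (mean 50.7 FPKM), its groups overlapped, and it missed 0.05 in 9 of 17 alternatives. Among all 1744 genes at that level, 17.0% were lower and 38.6% higher by the same test. Spearman's rho between mean FPKM and log2 fold change was -0.30 over the 43 carriers and 0.12 over all tested genes, and -0.31 and -0.12 where the mean reached 1 FPKM. These are descriptions across genes of the same 8 libraries, which are not independent replicates.

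The balance of paralogues was compared within each library, as the log2 ratio of (FPKM + 1), for 6 pairs of carriers with like substrates. Slc25a5 stood at 0.103, 0.0955, 0.110 and 0.103 of the FPKM of Slc25a4 in control and at 0.143, 0.144, 0.128 and 0.131 in ANG II. The log2 ratio of (FPKM + 1) was -3.28 ± 0.0811 and -2.87 ± 0.0889 (SD, n = 4 each), a difference of 0.41 with no overlap (exact two-sided permutation test, p = 0.0286). Slc25a24 relative to Slc25a23 differed by 0.47 and Slc25a37 relative to Slc25a28 by 0.32 on the log2 scale, each with no overlap and the same exact permutation p of 0.0286, the smallest that 4 against 4 libraries allow. Adjusted over the 6 pairs these values became 0.0571 and missed 0.05. The groups overlapped for Slc25a13 relative to Slc25a12 (difference -0.12, exact permutation p = 0.0857), for Slc25a33 relative to Slc25a36 (-0.58, exact permutation p = 0.0857) and for Slc25a39 relative to Slc25a40 (-0.07, exact permutation p = 0.571). The uncertainty in the Slc25a5 values holds for its ratio too.

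**Figure D4:**
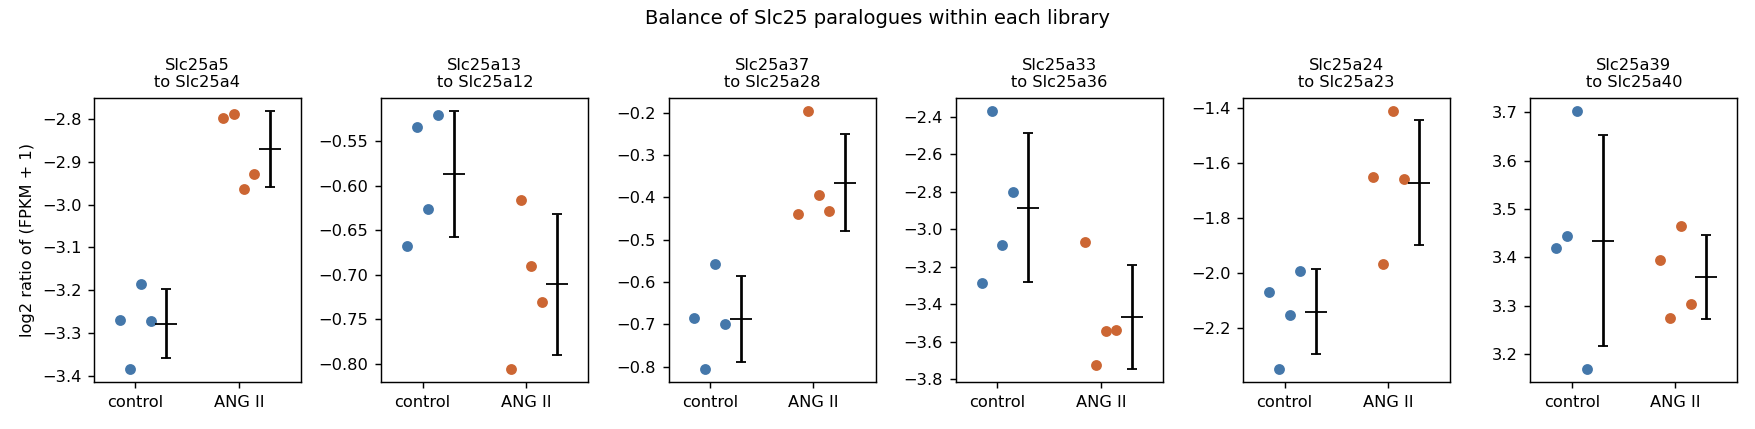
Log2 ratio of (FPKM + 1) between paralogous carriers within each library, 1 panel per pair with its own axis that does not start at 0, and the mean ± SD beside the 4 control and 4 ANG II points. The groups are apart for Slc25a5 to Slc25a4, Slc25a37 to Slc25a28 and Slc25a24 to Slc25a23, and overlap in the other 3 panels.

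Of 4 tested relatives of the family under other names, 2 were called higher and 0 were lower by the adjusted p-value. Over all tested genes, 14.0% were called higher and 4.91% were lower by the adjusted p-value. Ucp2, an uncoupling protein of many cell types, was at 33.4, 48.0, 38.7 and 37.9 FPKM in the controls and 108, 74.1, 95.0 and 91.3 FPKM under ANG II and was called higher (log2 fold change 1.20, limma adjusted p = 0.000119). Mtch1, an outer membrane carrier homologue, was at 80.5 ± 5.69 and 122 ± 7.72 FPKM (SD, n = 4 each) and was called higher as well (log2 fold change 0.59, limma adjusted p = 0.000147), whereas its paralogue Mtch2 was at 62.8 ± 1.68 and 57.3 ± 2.42 FPKM (SD, n = 4 each; limma adjusted p = 0.0599). Ucp3, the uncoupling protein of muscle, was at 13.3, 65.6, 17.6 and 24.5 FPKM in the controls and 15.6, 8.72, 11.9 and 15.2 FPKM under ANG II. Control 2 stood far above the rest, the groups overlapped, and the difference did not pass (limma adjusted p = 0.111). Ucp1 was listed at 0 in all 4 control libraries and was not tested.

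Other genes of mitochondrial transport were counted from lists drawn up with earlier results of these data known. These counts stand beside the shares over all tested genes, of which 28.4% were higher and 4.91% lower by the adjusted p-value, and 14.0% were called higher and 1.41% lower. Of 20 other inner membrane transporters, 8 were higher and 4 lower with an adjusted p-value under 0.05 in limma, and 4 were called, all higher: Sfxn1, Sfxn3 and Sfxn5, of the sideroflexin family that carries serine, and Mcub, a subunit that limits calcium uptake. Of 14 tested genes of the import route that carriers take into the inner membrane, 2 were higher by that test (Timm13 and Tomm7) and 0 were called. Of 12 shuttle enzymes, 7 were lower and 2 higher by the adjusted p-value, and among the lower were Mdh1, Mdh2, Got1 and Got2, the enzymes that work with Slc25a11, Slc25a12 and Slc25a13 in the malate-aspartate shuttle. Their log2 fold changes were -0.30, -0.31, -0.22 and -0.25. Of 20 nuclear genes of the respiratory chain, 15 were lower and 0 higher by the same test, and Cox7a1 alone was called. The median log2 fold changes were -0.26 for these respiratory chain genes, -0.23 for the shuttle enzymes and 0.09 for the other inner membrane transporters, beside 0.0046 for the carriers and 0.15 for all tested genes.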

How the data were processed

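The values used are FPKM as the authors deposited them, with 1 column for each of 8 libraries and no pooling. The submitters' processing notes name HISAT, Bowtie2 and RSEM without roles or versions. The genome build, the annotation and the use of strand are not given in the sources used here. Members and lists were chosen with earlier results of these data known. Samples were grouped by their treatment labels, and the study's methods call its sequenced samples biological replicates.

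The fit used limma 3.58.1 in R 4.3.3 (eBayes, trend allowed in the variance) for log2(FPKM + 1) of the 8 libraries together, without covariates, for genes whose mean reached 0.1 FPKM, and Benjamini-Hochberg adjustment over the 19364 genes tested. Base 2, the pseudocount of 1, which understates changes of low genes, and the filter were choices of this work, whereas the study names limma and both thresholds. Each paralogue ratio was tested by exact permutation over 70 allocations, two-sided. Scripts were tested on simulated data. Positions and transcripts came from GENCODE M21 (GRCm38), in which 55141 of 55679 gene IDs were found, and promoters from RefSeq (GRCm38.p6). Fragments per library were recovered from low values times the mean transcript length, of which at least 99.1% (genes with 1 transcript) and 97.1% (several) were within 0.05 of a whole number under 60 fragments. Fragment counts cover counting error only, without molecular identifiers.

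Every carrier with a mean of at least 0.1 FPKM could be named, and values in every library were given for called carriers, the 6 most abundant and those in pairs, with up to 3 others per role as examples. Genes of other transport lists were named where called, with up to 3 more per list, and cell type markers were given mainly as counts and ranges. Beyond this rule, Slc25a34, the genes without a test, a few further carriers or genes of a list, Alas2 and the relatives under other names were given after their values were seen. The values of 1 tested carrier are not reported here, though it is in the counts. Alternatives changed the pseudocount, filter, scaling, variance trend, replicate block, thresholds or libraries, and voom on recovered fragments was added after the data had been seen.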

Additional observations from a re-analysis of the deposited data

Results flagged for a closer look

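In groups of 4 libraries, a library was set apart when its gap to the nearest other exceeded Dixon's critical value for the share of the range. Of 156 groups examined, 8 were set apart, and chance gives about 1 in 20. ANG II 2 was the highest of its group for Slc25a11 (406 FPKM, the others at 370 to 372 FPKM), for Mdh2 (889.6 FPKM, the others at 766 to 783 FPKM), for the summed level of the carriers without Slc25a4 (2344 FPKM, the others at 2208 to 2223 FPKM) and for the share of the family held by the 6 genes most abundant over all 8 libraries (86.4%, the others at 85.3 to 85.4%). ANG II 3 was the highest of its group for Cox7a1 (356 FPKM, the others at 211 to 229 FPKM), for the summed mitochondrially encoded genes (170860 FPKM, the others at 149333 to 151179 FPKM) and for their share of fragments (21.8%, the others at 19.2 to 19.5%). Control 4 was the highest of its group for that share (26.95%, the others at 26.3 to 26.4%). In each of these, the library stayed on its own group's side of the other group, apart from Cox7a1, whose ANG II 3 value fell within the control range.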

How the results depend on the processing

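Of the alternatives, those of scaling and threshold moved the count of called carriers most. Against 4 called (4 higher, 0 lower), median-of-ratios scaling gave 11 (8 lower), quantile normalization 9 (2 higher, 7 lower) and removal of mitochondrially encoded genes 8 (4 lower). A pseudocount of 0.1 and voom on recovered fragments each gave 2 lower. With no fold change threshold 19 passed (7 higher, 12 lower), and 0 passed above an absolute log2 fold change of 1, where all genes gave 795 calls, against 6447 with no threshold and 2981 as reported. Higher calls made up 90.8% of all calls as deposited, 67.5% under median-of-ratios scaling, 58.9% under quantile normalization and 82.5% without mitochondrially encoded genes. With 1 library left out, 4 to 6 carriers were called, 4 to 5 of them higher and 0 to 1 lower. The log2 fold change of Slc25a5 turned under median-of-ratios scaling (-0.046). So did those of other carriers that had not passed, such as Slc25a39 (-0.09) and Slc25a36 (-0.11). Each had been small and positive as deposited, and that scaling also lowered the median over all tested genes from 0.15 to 0.0042. The replicate block left 4 carriers called. Under it Slc25a4, Slc25a33, Slc25a34 and Slc25a38 missed an adjusted p-value of 0.05 in limma (0.0551, 0.0944, 0.0702 and 0.0753). Same-numbered libraries shared only a number, with correlations of their deviations from -0.032 to 0.062. Paralogue differences kept their sign with a pseudocount of 0.1, while the replicate block cannot move them in this balanced design. With 1 library left out, they ranged from 0.37 to 0.44 for Slc25a5 to Slc25a4, and from -0.16 to 0.02 for Slc25a39 to Slc25a40. Slc25a2, Slc25a18, Slc25a31 and Slc25a43 rested on 13 fragments or fewer per library, where a difference was not detectable at this depth.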
